A study of Mus musculus with 12 samples.

Results

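The replication-dependent histone genes encode the core histones H2A, H2B, H3 and H4 and the linker histone H1 that package newly made DNA. They were taken as every row of the table of normalised read counts whose gene symbol begins with Hist1h, Hist2h, Hist3h or Hist4h, which gave 65 of the 29486 genes listed. By symbol, 6 belong to class H1, 17 to H2A, 19 to H2B, 10 to H3 and 13 to H4. The annotation calls 61 of them protein-coding, 3 pseudogenes (Hist1h2aj, Hist1h2al and Hist3h2bb-ps) and 1 a lincRNA (Hist2h2bb). The rule also takes in Hist1h1t and Hist1h2ba, testis forms of H1 and H2B.

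These genes are transcribed mainly during S phase. Their pre-mRNAs are cut just after a short stem-loop and, unlike other mRNAs, usually carry no poly(A) tail. The stem-loop binding protein Slbp holds the stem-loop through processing, export and translation, and the mRNAs are degraded when DNA synthesis stops. Some histone genes can also give longer, polyadenylated transcripts, for example in cells that have left the cycle. The libraries were made from polyA RNA, so that histone mRNA ending at the stem-loop is largely outside what was measured.

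Total mRNA was sequenced from splenic B cells of C57BL/6Babr mice in 3 conditions with 4 libraries each. LPS cells were activated with LPS (10 μg/ml, 48 h). LE cells received LPS for 48 h and then etoposide (20 μM, 4 h), a topoisomerase II inhibitor that causes DNA double-strand breaks. LEKU cells received LPS for 47 h, then KU55933 (10 μM), an inhibitor of the DNA damage kinase ATM, for 1 h and then etoposide (20 μM, 4 h). All 12 libraries came from LPS-activated cells, no library received KU55933 without etoposide, and the labels do not say whether LPS cells stayed in culture for the further 4 h. Each condition carried its own Illumina indexes, so index and condition cannot be told apart.

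The 4 columns of a condition held the same values times a constant for each library (log2 ratios between columns varied by at most 1.39e-14). Each gene therefore has 1 fitted mean in each condition and no spread between replicates, so that no test was made and no p-value is given. The deposited values of Hist1h1c, the histone gene with the highest mean, were 156, 173, 180 and 162 in LPS replicates 1 to 4, 89.3, 100.1, 121 and 97.0 in LE, and 460.2, 519, 556 and 565 in LEKU. Divided by the library factors these became 183.6, 93.9 and 513. Library totals of the fitted counts ranged from 20739978 to 23935658 in LPS, 22523516 to 30575195 in LE and 20400994 to 25052093 in LEKU. A gene with a mean of at least 10 over the 3 conditions was kept for counts past 2-fold, and 14969 genes, 13 of them histone genes, were kept. The 95% intervals given are exact (Clopper-Pearson) and cover counting error only, and the levels are fitted counts per library after scaling unless given per kb.

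The stem-loop and the end of the annotated transcript are shown because a transcript cut at the stem-loop has no tail for polyA selection. Of the 61 histone genes annotated as protein-coding (GENCODE M21, GRCm38), 43 had a transcript with letters that fit the histone stem-loop consensus, against 0.452% of 21901 protein-coding genes. Many of the others, such as Hist1h1b, Hist1h2ai, Hist1h3h and Hist1h4k, have 0 bases annotated after the stop codon. For them the missing match does not show that the gene lacks a stem-loop. Sites are given 5′ to 3′ on the strand of the gene, with the 16 bases of the stem-loop in capitals, for 5 abundant genes annotated well past it and for Hist1h2bj, annotated 23 bases past it.
Hist1h1c: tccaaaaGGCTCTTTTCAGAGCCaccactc
Hist1h4i: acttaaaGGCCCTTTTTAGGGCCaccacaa
Hist4h4: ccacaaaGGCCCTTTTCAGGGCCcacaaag
Hist3h2a: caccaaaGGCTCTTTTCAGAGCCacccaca
Hist3h2ba: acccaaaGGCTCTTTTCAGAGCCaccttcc
Hist1h2bj: atccaaaGGCTCTTTTCAGAGCCacgcaca
In order, these lie in the 3′ ends at chr13:23739505-23739534 (+ strand), chr13:22040959-22040988 (- strand), chr6:136803991-136804020 (- strand), chr11:58955165-58955194 (+ strand), chr11:58949342-58949371 (+ strand) and chr13:22043631-22043660 (+ strand), and the annotated transcripts go on for 840, 330, 2445, 1643, 169 and 23 bases after the stem-loop.

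The last 30 bases of 3 of the abundant transcripts, Hist1h1c, Hist2h2be and Hist4h4, are shown with letters that match a poly(A) signal in capitals. Hist2h2be has no match to the stem-loop consensus and 2192 annotated bases after its stop codon. In Hist4h4 the letters stop 3 bases before the annotated end, and whether they act as a signal there was not tested.
Hist1h1c transcript end: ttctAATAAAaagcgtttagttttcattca
Hist2h2be transcript end: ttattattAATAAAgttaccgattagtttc
Hist4h4 transcript end: agaagatgctagaggagatgaAATAAAtac
They lie at chr13:23740338-23740367 (+ strand), chr3:96223709-96223738 (+ strand) and chr6:136801553-136801582 (- strand). Hist1h2bc, which is spliced and runs 742 bases past its stop codon, had neither a stem-loop match nor such a signal in its last 50 bases.

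The abundance of histone transcripts differed widely by gene. Hist1h1c, Hist2h2be, Hist1h4i, Hist4h4, Hist1h2bc, Hist3h2a, Hist1h2be and Hist3h2ba had the 8 highest means and held 78.2% of the summed level of the 65 genes in LPS, 67.9% in LE and 75.8% in LEKU. The other 5 kept genes, Hist1h2bg, Hist1h2bj, Hist1h2br, Hist1h2bq and Hist2h4, had means between 11.4 and 13.7. The remaining 52 genes had means from 0.085 to 9.89. Hist1h1e (9.89) lay just below the limit and Hist2h4 (11.4) just above it. Summed over all 65 genes, histone transcripts made up 46.2 CPM (counts scaled to the library total) in LPS, 29.6 in LE and 72.6 in LEKU. No H3 gene was kept, and the highest, Hist1h3c, had levels of 6.33, 6.71 and 11.6.

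**Figure D1:**
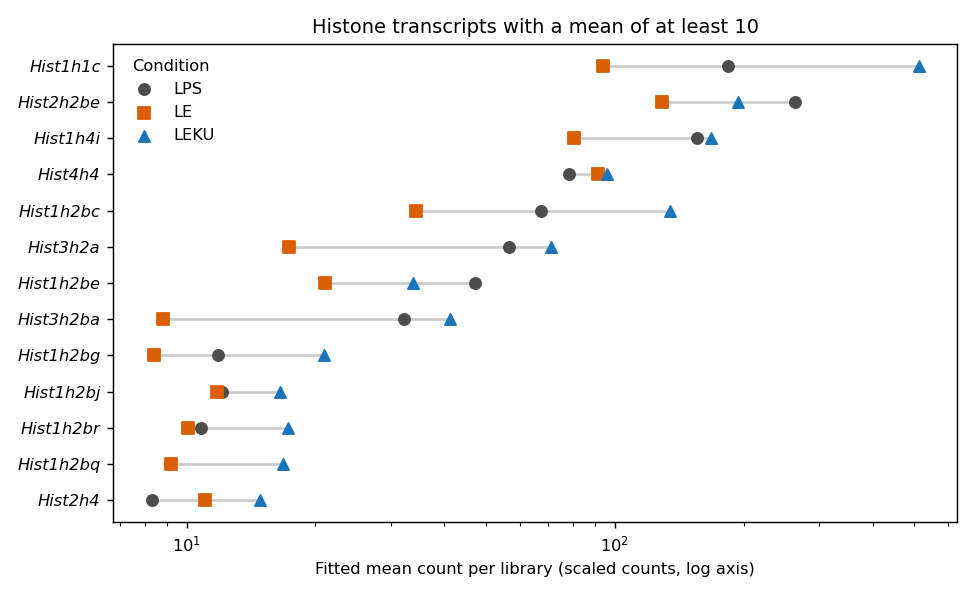
Fitted mean count per library (log axis) of the 13 histone genes with a mean of at least 10, in LPS (circles), LE (squares) and LEKU (triangles). LE is the lowest condition for 10 of the 13 genes, against 26.8% of all kept genes. LEKU lies above LPS for 11, against 55.1%, and each point is 1 fitted mean with no replicate error.

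Of the 8 genes with the highest means, 4 lie on chromosome 13 (GRCm38). Hist1h1c is at chr13:23738808-23740367 and Hist1h4i at chr13:22040636-22041362, with Hist1h2bc at chr13:23684199-23692908 and Hist1h2be at chr13:23583670-23621124. Hist2h2be is at chr3:96221119-96223738, Hist3h2ba at chr11:58948920-58949533, Hist3h2a at chr11:58954685-58956830 and Hist4h4 at chr6:136801553-136804415.

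Per kb of annotated exon the order changed. The H4 gene Hist1h4i had the highest mean, with 213 counts per kb in LPS, 110.2 in LE and 230.5 in LEKU. The linker histone gene Hist1h1c had 118, 60.2 and 329, below Hist1h4i in LPS and LE and above it in LEKU. In class H2B the highest were Hist2h2be (100.5, 49.1 and 74.1 counts per kb), Hist1h2bc (58.3, 29.7 and 116) and Hist3h2ba (52.5, 14.3 and 67.0). In class H2A, Hist3h2a had 26.4, 8.07 and 33.02 counts per kb, ahead of Hist1h2ai (9.49, 7.01 and 19.7) and Hist1h2ag (13.1, 7.58 and 14.9). In class H4, Hist4h4 (27.4, 32.0 and 33.5 counts per kb) and Hist1h4k (22.1, 17.0 and 36.4) came after Hist1h4i. The highest of class H3 were Hist1h3c (10.1, 10.6 and 18.5), Hist1h3h (7.72, 7.82 and 11.3) and Hist1h3a (9.63, 3.68 and 10.7), and in H1 Hist1h1b (8.33, 6.82 and 9.61) and Hist1h1a (6.55, 6.12 and 7.37) came after Hist1h1c.

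Genes with annotated poly(A) signal letters were more often kept and had a higher median level per kb in LPS. Of the 16 histone genes with a poly(A) signal (AATAAA or ATTAAA) in the last 50 bases of a transcript, 10 had a mean of at least 10, against 3 of the 49 without one. Median levels in LPS were 11.2 and 5.77 counts per kb. Of the 22 genes annotated 100 or more bases past the stem-loop, 8 were kept. Of the 21 annotated under 100 bases past it, 1 was kept (Hist1h2bj), and of the 22 with no match to the stem-loop letters, 4 were kept. That last group includes genes annotated to end at the stop codon, where the letters could not be found. Counts per kb did not follow this split, with LPS medians of 5.19, 8.02 and 6.11 in the same order. The limit of 10 is not scaled by length, so long transcripts pass it more easily. A long annotated end did not always go with a high level. Hist1h1d, annotated 4884 bases past its stem-loop, had levels of 4.20, 4.77 and 11.7, and Hist1h2ac, annotated 2010 bases past it, had levels of 4.03, 1.87 and 3.49.

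**Figure D2:**
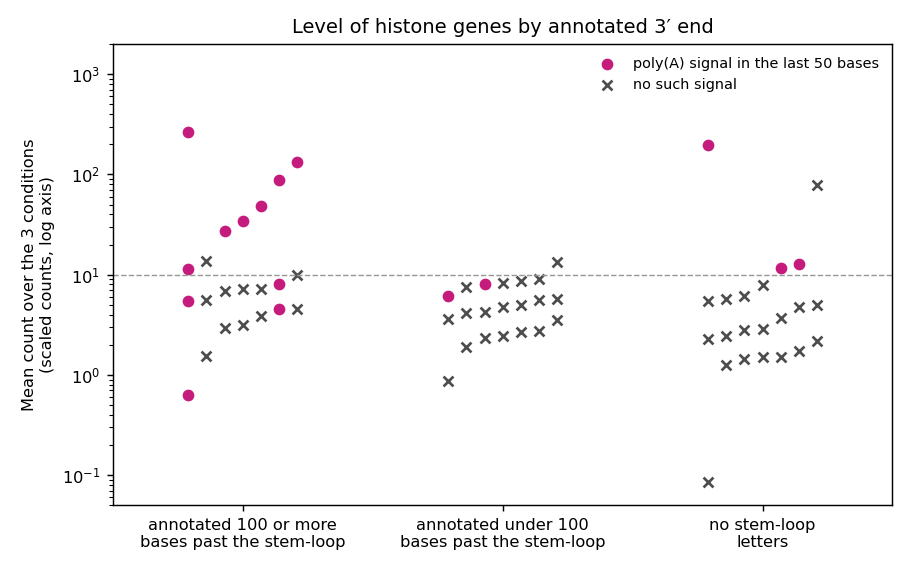
Mean count over the 3 conditions (log axis) of each of the 65 histone genes, grouped by how far its annotated transcript runs past the stem-loop letters. Filled circles have a poly(A) signal in the last 50 bases, crosses do not, and the dashed line is the mean of 10. Of the 13 genes above the line, 10 are filled circles. Counts are not divided by transcript length.

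With etoposide, the more abundant histone transcripts were lower, and Hist4h4 and Hist2h4 were not, except with quantile normalization. This comparison asks how a DNA damage response changes mRNA abundance in activated B cells. Of the 13 kept genes, 4 were more than 2-fold lower in LE than in LPS and 0 more than 2-fold higher, where 5.02% of all kept genes were lower and 14.4% higher by as much. The 4 became 2 with the columns as deposited, 7 with TMM or with median-of-ratios over all genes and 9 with quantile normalization. Their median log2 ratio was −0.95, against 0.05 over all kept genes. Bulk RNA cannot tell fewer cells in S phase from less histone RNA in each cell. Of the 13, 10 had lower and 3 higher values at any size, against 46.1% and 53.9% of all kept genes. Over all 65 genes 8 were more than 2-fold lower and 0 higher, against 3.03% and 13.2% of all genes in the table, and 44 had lower and 21 higher values, against 34.1% and 65.9%. The summed level was 1130 in LPS and 701 in LE, 1.61-fold lower (log2 ratio −0.69, interval −0.76 to −0.62).

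The largest differences were those of the neighbouring genes Hist3h2ba and Hist3h2a on chromosome 11, which encode H2B and H2A. Hist3h2ba had a level of 32.2 in LPS and 8.80 in LE, 3.66-fold lower (log2 ratio −1.87, interval −2.45 to −1.35). Hist3h2a had a level of 56.6 in LPS and 17.3 in LE, 3.27-fold lower (log2 ratio −1.71, interval −2.12 to −1.33). The H2B genes Hist1h2be (47.2 and 21.03, log2 ratio −1.17, interval −1.55 to −0.79) and Hist2h2be (263 and 129, log2 ratio −1.03, interval −1.19 to −0.88) were also past 2-fold. 3 genes lay just short of it. Hist1h1c went from 183.6 to 93.9 (log2 ratio −0.97), Hist1h2bc from 67.4 to 34.3 (−0.97) and Hist1h4i from 155 to 80.1 (−0.95).

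Against these, Hist4h4, the H4 gene that lies alone on chromosome 6, had a level of 78.3 in LPS and 91.6 in LE (log2 ratio 0.23, interval 0.004 to 0.45, and −0.21 with quantile normalization). Hist2h4 had a level of 8.29 and 11.02 (log2 ratio 0.41, interval −0.26 to 1.14, and −0.28 with quantile normalization). The intervals of Hist1h2bg, Hist1h2bj, Hist1h2br and Hist1h2bq held 0. Among the 52 genes with a mean under 10 only Hist1h2bh (6.39 and 2.77) and Hist1h3a (5.14 and 1.97) had an interval below 0, and 0 had an interval above it. Intervals were computed for histone genes only, so these counts have no share of all genes beside them. The fit draws low values together: of 2669 genes whose 12 fitted values summed to between 0.5 and 1.5, the largest ratio between conditions was 1.19. Ratios of the low histone genes may therefore understate a difference.

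With KU55933 before etoposide, histone transcripts were higher than with etoposide alone in all 5 histone classes. This comparison asks which effects of etoposide need ATM. Because no library received KU55933 without etoposide, an effect of the inhibitor itself cannot be told apart. Of the 13 kept genes, 6 were more than 2-fold higher in LEKU than in LE and 0 lower, where 1.78% of all kept genes were higher and 4.14% lower by as much. Their median log2 ratio was 0.87, against −0.05 over all kept genes. That median is the value of Hist1h2bq, with levels of 9.14 in LPS, 9.19 in LE and 16.8 in LEKU. Without LEKU, Hist1h2bq and Hist2h4 (8.29, 11.02 and 14.9) would average under 10. They passed the filter on mean level only through LEKU, so the filter can favour genes that are high in LEKU. Without the filter, the median over all 65 genes was 0.78, against −0.05 over all genes in the table. Over all 65 genes 64 had a higher value in LEKU, against 43.1% of all genes in the table, and 21 were more than 2-fold higher, against 1.46%, with 0 lower, against 4.23%. All 13 kept genes were higher and 0 lower at any size, where 44.7% and 55.3% of all kept genes were, although Hist4h4 turned to −0.02 with the columns as deposited. Only Hist2h2ab, with levels of 0.08 to 0.09 in every condition, had a lower value. The summed level was 2.35-fold higher (log2 ratio 1.24, interval 1.17 to 1.30), and that of the 64 genes other than Hist1h1c 1.87-fold (log2 ratio 0.91, interval 0.84 to 0.98).

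Hist1h1c, a linker histone gene, had the largest ratio. Its level was 93.9 in LE and 513 in LEKU, 5.47-fold higher (log2 ratio 2.45, interval 2.30 to 2.61). Hist3h2ba followed, from 8.80 to 41.1 (4.67-fold, interval 1.71 to 2.78 on the log2 scale), and Hist3h2a, from 17.3 to 70.9 (4.09-fold, interval 1.67 to 2.42). The H2B gene Hist1h2bc went from 34.3 to 134.6 (3.93-fold, interval 1.71 to 2.24). These 4 had the largest ratios of the kept genes, and each was also lower with etoposide. A larger fall did not always go with a larger rise. Hist2h2be and Hist1h2be were 2.05-fold and 2.24-fold lower with etoposide, and 1.51-fold and 1.61-fold higher in LEKU than in LE. Both comparisons use the LE value, which alone pairs a fall with a rise. Hist1h2bg (8.40 and 20.9, log2 ratio 1.32) and Hist1h4i (80.1 and 167.5, log2 ratio 1.06) were the other 2 past 2-fold.

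Ratios were smaller for the rest. Hist2h2be went from 129 to 194 (log2 ratio 0.59, interval 0.44 to 0.75) and Hist1h2be from 21.03 to 33.8 (0.68, interval 0.29 to 1.08). The smallest kept ratio was that of Hist4h4, with 91.6 and 96.0 (0.07, interval −0.14 to 0.27). Hist2h4 (0.43) and Hist1h2bj (0.49) also had intervals that held 0. Among the 52 genes with a mean under 10, 51 had a higher value and 1 a lower value, where 41.4% and 58.6% of all genes at that level did. An interval above 0 was found for 18 of the 52, but intervals were computed for histone genes only, with no share of all genes. These 18 included the linker histone genes Hist1h1e (5.57 and 16.5) and Hist1h1d (4.77 and 11.7), the H3 gene Hist2h3c2 (2.67 and 6.83) and the H4 gene Hist1h4k (5.30 and 11.3).

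**Figure D3:**
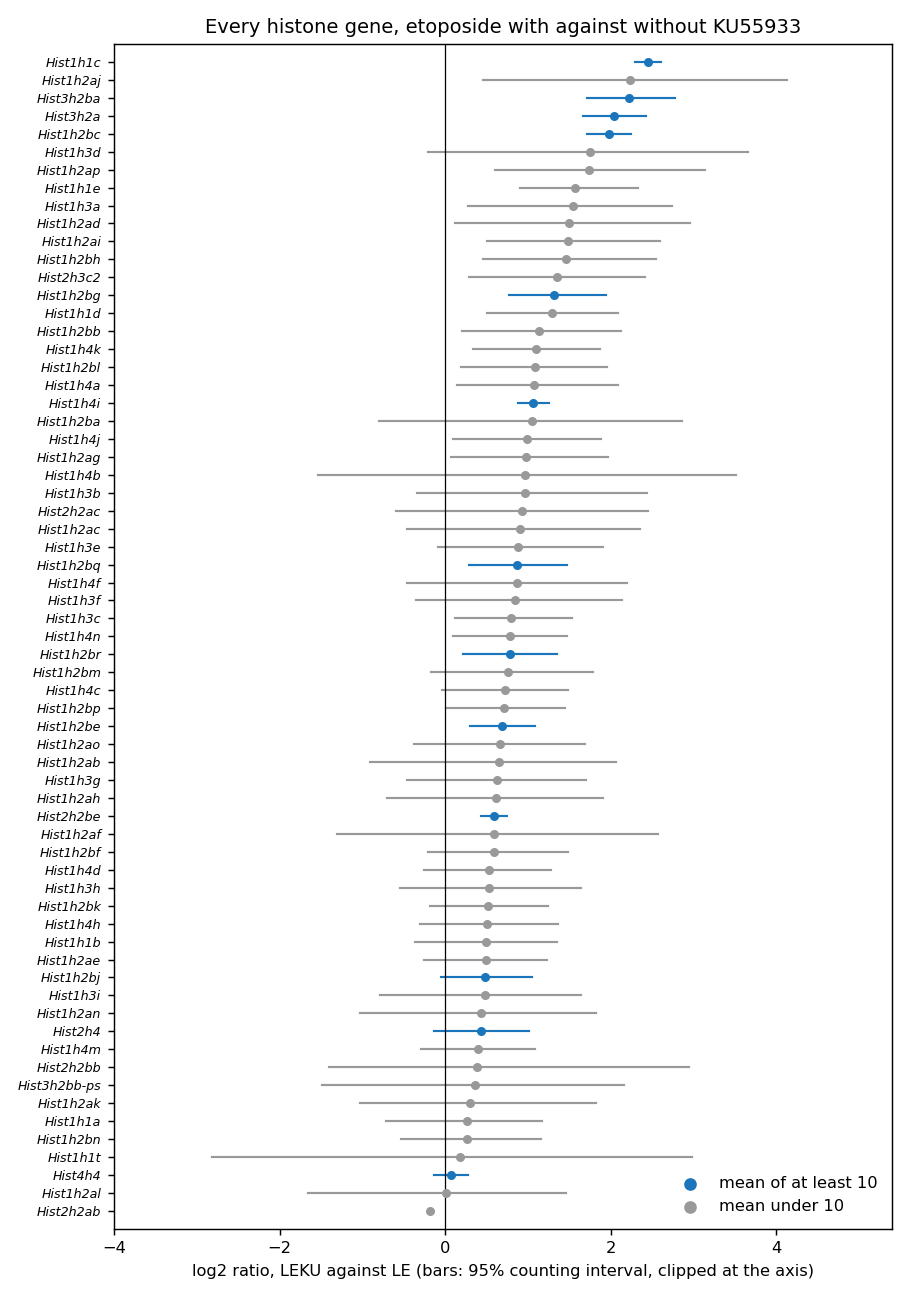
Log2 ratio of LEKU against LE for each of the 65 histone genes, ordered by size, with bars for the 95% counting interval. Blue marks the 13 genes with a mean of at least 10, grey the 52 below it, and Hist2h2ab has no bar because its rounded sums are 0. 64 of the 65 points lie above 0, against 43.1% of all genes in the table. The intervals of 28 genes lie wholly above 0, but intervals were computed for histone genes only, so no share of all genes stands beside the 28.

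The summed level of histone transcripts was also higher in LEKU than with LPS alone. Of the 13 kept genes, 1 was more than 2-fold higher in LEKU than in LPS and 0 lower, where 12.2% of all kept genes were higher and 5.16% lower by as much. The count was 3 with library totals, 4 with the columns as deposited and 2 without LPS replicate 1, LPS replicate 4 or any 1 of the 4 LEKU libraries. The median log2 ratio was 0.45, against 0.08 over all kept genes, and the summed level was 1.46-fold higher (log2 ratio 0.55, interval 0.49 to 0.60). Hist1h1c carried much of that sum, and the other 64 genes together had levels of 946 in LPS and 1138 in LEKU (log2 ratio 0.27, interval 0.20 to 0.33). The gene past 2-fold was Hist1h1c (183.6 and 513, log2 ratio 1.48, interval 1.36 to 1.61). Hist1h2bc stood at the limit (67.4 and 134.6). Hist1h4i (155 and 167.5, log2 ratio 0.11, interval −0.05 to 0.28) and Hist3h2ba (32.2 and 41.1, 0.35) had intervals that reached 0, while Hist3h2a (56.6 and 70.9, 0.32) had an interval of 0.06 to 0.59. Hist1h2be (47.2 and 33.8, −0.48, interval −0.82 to −0.15) and Hist2h2be (263 and 194, −0.44, interval −0.58 to −0.30) were lower in LEKU than in LPS. Hist1h2bq (9.14 and 16.8, 0.88), Hist2h4 (8.29 and 14.9, 0.84) and Hist1h2bg (11.8 and 20.9, 0.82) were the next largest of the kept genes. Of these, Hist1h2bq and Hist2h4 passed the filter only through LEKU, so their rank among the kept genes is no support for a rise. Without the filter, the median log2 ratio over all 65 genes was 0.67, against 0.16 over all genes in the table. Of the 13, 11 had a higher value, against 55.1% of all kept genes. Over all 65 genes 61 had a higher value in LEKU than in LPS, against 65.7% of all genes in the table, and so did 50 of the 52 with a mean under 10, against 76.6%. Past 2-fold were 11 of the 65 higher and 0 lower, against 9.79% and 3.22%. With quantile normalization Hist1h4i (−0.13), Hist3h2ba (−0.04), Hist4h4 (−0.03), Hist3h2a and Hist1h2bj turned to values below 0 in this comparison, as did Hist1h4i (−0.02) with median-of-ratios over all genes.

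By class, the summed levels in LPS, LE and LEKU were 207, 114 and 555 for H1, 103, 53.0 and 137 for H2A, 499.9, 274 and 546 for H2B, 31.5, 28.8 and 54.2 for H3 and 288, 230.4 and 359 for H4. Single genes weigh on these sums, since Hist1h1c gives most of the H1 level. The median log2 ratio of the genes in LEKU against LE lay close together, at 0.89 for H1, 0.66 for H2A, 0.75 for H2B, 0.86 for H3 and 0.78 for H4. Most of the genes, 55 of 65, lie on chromosome 13, with 6 on chromosome 3, 3 on chromosome 11 and 1 on chromosome 6.

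The 3 comparisons share their libraries, and their ratios are therefore set side by side here and not correlated. Of the 13 kept genes, 10 were lower in LE than in LPS and higher in LEKU than in LE, a pattern held by 26.8% of all kept genes. For 7 of them both differences were at least 1.5-fold, against 2.49% of all kept genes. Those 7 were Hist1h1c, Hist2h2be, Hist1h4i, Hist1h2bc, Hist3h2a, Hist1h2be and Hist3h2ba. Over all 65 genes, LE was lowest and LEKU highest for 40, LPS lowest and LEKU highest for 20, LE lowest and LPS highest for 4, and LE highest for 1. The share of all genes with each order was not counted, so these orders are not read as particular to histone genes.

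**Figure D4:**
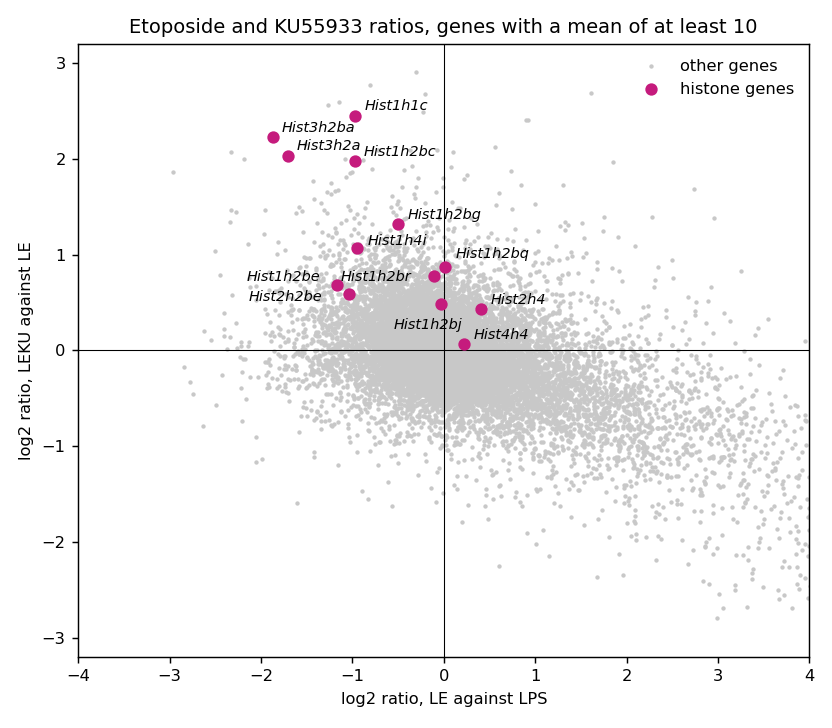
Log2 ratio of LE against LPS (horizontal) and of LEKU against LE (vertical) for the genes with a mean of at least 10, with the 13 histone genes named. Both axes use the LE value, which alone gives a downward slope, and 163 other genes lie outside the plotted range. 10 of the 13 histone genes lie in the upper left, against 26.8% of all kept genes, and Hist4h4 lies near the centre.

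Many histone genes lie in divergent pairs that share the space between their starts, and 14 such pairs were found with starts 173 to 660 bases apart, 12 of them an H2A and an H2B gene of cluster Hist1 or Hist2. Partners differed in level. Hist1h2bc had a mean of 68.1 counts per kb and its partner Hist1h2ac, 251 bases away, 1.26, a ratio of 54.0. Hist2h2be had 74.6 and Hist2h2ac, 239 bases away, 3.67. The ratios also differed: from LE to LEKU Hist1h2bc had a log2 ratio of 1.97 and Hist1h2ac one of 0.90, and from LPS to LE Hist2h2be had a log2 ratio of −1.03 and Hist2h2ac one of 0.50, on levels of 1.12 and 1.58. In the other Hist1 pairs of H2A and H2B the mean per kb differed between partners by 1.25-fold to 2.60-fold.

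Promoter windows of RefSeq (GRCm38.p6, 250 bases before to 50 after the start) were found for 57 of the 65 genes and searched on both strands for the TATA box TATAAA, the CCAAT box CCAAT and the octamer ATGCAAAT, the site known for Oct factors in H2B promoters. CCAAT was in 48 of the 57, against 41.1% of 27025 genes, in all 45 of classes H1, H2A, H2B and H3 and in 3 of 12 of class H4. TATAAA was in 33 of 57, against 15.7% of all. The octamer was in 13 of 57, 6 of them H2A and 7 H2B genes, against 1.97%. Windows of divergent partners overlap, so the same site can count for both genes, as the octamer of Hist1h2ae and Hist1h2bg does. These are therefore counts of genes and not of separate sites. The 250 bases before the start are printed for the 3 kept genes with the largest ratios of LEKU against LE and for Hist4h4, whose ratio was the smallest of the kept genes, with the searched letters in capitals.
Hist1h1c: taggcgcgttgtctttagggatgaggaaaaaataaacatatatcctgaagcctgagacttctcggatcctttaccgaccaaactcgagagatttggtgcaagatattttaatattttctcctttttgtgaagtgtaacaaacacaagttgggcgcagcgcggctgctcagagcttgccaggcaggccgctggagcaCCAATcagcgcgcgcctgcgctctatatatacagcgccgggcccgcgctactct
Hist3h2ba: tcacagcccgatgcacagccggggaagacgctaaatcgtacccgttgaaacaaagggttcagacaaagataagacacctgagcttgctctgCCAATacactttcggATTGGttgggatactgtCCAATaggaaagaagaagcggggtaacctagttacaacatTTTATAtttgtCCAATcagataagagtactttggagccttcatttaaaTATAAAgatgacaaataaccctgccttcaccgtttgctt
Hist3h2a: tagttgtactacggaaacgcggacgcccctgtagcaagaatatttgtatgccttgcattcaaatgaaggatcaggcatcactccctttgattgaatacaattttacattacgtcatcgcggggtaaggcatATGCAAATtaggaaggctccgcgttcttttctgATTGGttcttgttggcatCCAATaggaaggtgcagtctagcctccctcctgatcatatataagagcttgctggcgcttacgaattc
Hist4h4: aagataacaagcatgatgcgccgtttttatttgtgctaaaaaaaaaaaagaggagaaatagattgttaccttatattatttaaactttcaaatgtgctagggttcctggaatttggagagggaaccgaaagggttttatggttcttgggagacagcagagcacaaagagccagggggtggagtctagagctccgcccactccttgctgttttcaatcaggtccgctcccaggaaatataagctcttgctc
They lie at chr13:23738557-23738806 (+ strand), chr11:58948661-58948910 (+ strand), chr11:58954435-58954684 (+ strand) and chr6:136804432-136804681 (- strand). Hist1h1c holds CCAAT, Hist3h2ba CCAAT and TATAAA, Hist3h2a CCAAT and the octamer, and Hist4h4 none of the 3 exact strings. Position was not considered, and similar letters, such as tatata in Hist1h1c and Hist3h2a and atataa in Hist4h4, did not count. These matches therefore do not show which genes have a TATA box. Over the 57 genes the median log2 ratio of LEKU against LE was 0.77 with CCAAT and 0.87 without, 0.78 with TATAAA and 0.79 without, and 0.75 with the octamer and 0.79 without.

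The genes that make, escort and degrade histone mRNA and protein, and replication genes, differed less in LEKU against LE. None of the 92 genes in 5 lists was past 2-fold in that comparison. Of all kept genes, 1.78% were higher and 4.14% lower by as much. With the columns as deposited, however, 2 transcription genes and 1 replication gene were past 2-fold, and with quantile normalization 1 transcription gene was. In the list for 3′ end processing of histone pre-mRNA, 13 of 20 genes were lower in LEKU than in LE, where 55.3% of all kept genes were, with a median log2 ratio of −0.20. Slbp, which binds the stem-loop, had levels of 3318, 2697 and 2272. Casp8ap2 (3197, 3759 and 3525), a part of the histone locus body, and Zfp473 (226, 193 and 144), a zinc finger protein of the U7 complex, had log2 ratios of −0.09 and −0.42 in LEKU against LE. Lsm10 (232, 224 and 320) and Lsm11 (489, 478 and 654), the subunits found only in the U7 ribonucleoprotein, were higher with KU55933, by 0.52 and 0.45 on the log2 scale.

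In the list for histone gene transcription, Npat, the coactivator that cyclin E and Cdk2 phosphorylate, had levels of 1827, 1639 and 1910. Ccne1 (846, 438 and 411) was past 2-fold in LEKU against LPS (log2 ratio −1.04), where 5.16% of all kept genes were lower by as much. Ccne2 had levels of 546, 855 and 429.55, and Cdk2 of 2745, 1802 and 1630. The median log2 ratio of the 10 genes was 0.02 with etoposide and −0.24 with KU55933. In the decay list, Eri1, an exonuclease that trims the histone stem-loop, had levels of 2741, 2022 and 1880. Zcchc6, a uridylyl transferase, was the only 1 of 19 past 2-fold (2100, 4664 and 3454, log2 ratio 1.15 in LE against LPS). In LE against LPS 14.4% of all kept genes were higher by as much. The median log2 ratio of the decay list in LEKU against LE was −0.13.

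Most histone chaperone and replication genes were lower in LEKU. Of 19 chaperone genes, 15 were lower in LEKU than in LE, where 55.3% of all kept genes were. In LEKU against LPS 4 were past 2-fold lower, where 5.16% of all kept genes were, and 2 with quantile normalization or the columns as deposited. These 4 were Nasp, a carrier of H3 and H4 (4680, 2788 and 2315, log2 ratio −1.02), Asf1b (2038, 1031 and 871, −1.23), Rbbp7 (8257, 5058 and 3595, −1.20) and Mms22l (1688, 961 and 773, −1.13). Chaf1b, a subunit of chromatin assembly factor 1, had levels of 981, 1004 and 671. Spty2d1 was past 2-fold higher with etoposide (1565 and 3142, log2 ratio 1.01), where 14.4% of all kept genes were. Of 24 replication genes, 21 were lower in LEKU than in LE, against 55.3% of all kept genes, with a median log2 ratio of −0.36. Their medians were −0.20 in LE against LPS and −0.63 in LEKU against LPS. In LE against LPS, Pola1 (2834 and 1274) and Pold1 (4015 and 1696) were past 2-fold lower, where 5.02% of all kept genes were. With the columns as deposited 0 of the list were past 2-fold lower there and 1 was higher. In LEKU against LPS 6 were past 2-fold lower, where 5.16% of all kept genes were. In that comparison 2 of the list were past 2-fold with the columns as deposited and 3 with quantile normalization. The 6 were Pola1 (2834 and 1003), Pold1 (−1.07), Mcm6 (−1.02), Gins1 (−1.11), Rrm1 (−1.14) and the S and G2 phase cyclin Ccna2 (4591, 2365 and 1473, −1.64). Histone transcripts were higher with KU55933 in libraries where most replication genes were lower. A relation between them was not tested, and histone mRNA ending at the stem-loop is largely outside these polyA libraries.

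**Figure D5:**
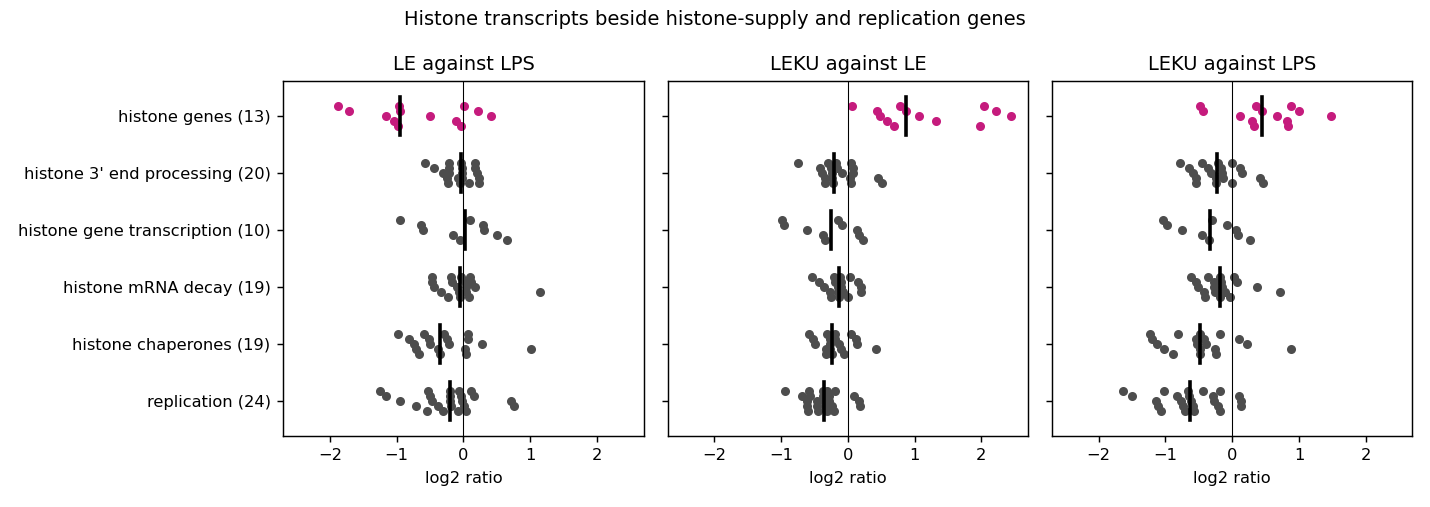
Log2 ratios in the 3 comparisons for the 13 kept histone genes (pink) and the kept genes of 5 lists (grey), with the number of genes in brackets and a black bar at each median. In LEKU against LE the histone genes have a median of 0.87 and lie above 0, and the medians of the 5 lists lie between −0.36 and −0.13.

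The 5 genes outside the family, with a mean of at least 50, whose pair of ratios lay nearest to the median pair of the histone genes (−0.95 and 0.87) were Rinl (560.5, 285 and 523), Agpat2 (152, 79.8 and 148), Pik3ip1 (531, 266 and 483), S1pr1 (660, 347 and 617) and B3gnt5 (3658, 1952 and 3516). The distance was 0.02 for Rinl and 0.05 for B3gnt5, over 2 log2 ratios from 3 conditions.

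Reads of near-identical genes limit single values. For 35 of the 65 genes at least 30% of the 100-base windows of their transcripts, the length of a read, also occur in another gene, as do 94.8% for Hist1h2bq and 86.4% for Hist1h2br. The settings of the read counting for strand and for reads with several matches are not given in the sources used here. Among the 30 genes with less sharing 29 had a higher value in LEKU than in LE. The shares were 5.07% for Hist1h1c, 0% for Hist2h2be and 4.85% for Hist3h2ba, but 25.4% for Hist1h2bc and 29.8% for Hist3h2a, just under the limit. Hist3h2a overlaps exons of Trim17, with levels of 21.9, 39.2 and 37.1, and Hist1h2be overlaps exons of Hist1h1e.

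The labelled cell type matched its markers, and other cell types were low. All 8 B cell markers were kept in every condition, with summed levels of 464509, 373942 and 386520. All 8 were lower in LE than in LPS, and Pax5 (5341, 1146 and 1180), Cd22 (23231, 4369 and 5115) and Blk (3392, 1373 and 1565) were past 2-fold. Of all kept genes, 46.1% were lower in LE and 5.02% were past 2-fold lower. All 6 T cell markers were below 5 in every condition. The summed levels were 402, 478 and 436 for 6 macrophage markers, 22.1, 28.4 and 24.7 for the 3 of 4 natural killer cell markers in the table and 2.09, 15.3 and 4.46 for 4 neutrophil markers. Among these, Cd14 had levels of 4.99, 24.7 and 41.1 and Mpo of 1.22, 14.2 and 3.39. No fitted value of any gene was 0 (the lowest was 0.063), so low marker values do not show whether other cells were present. The part of other cells in the histone values was not tested.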

How the data were processed

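Per the labels and the methods of the study, the authors trimmed reads with Trim Galore and cutadapt 1.2.1, mapped them to GRCm38 with TopHat2 2.0.12, obtained read counts per Ensembl gene from HTSeq and ran DESeq2 1.6.3. The deposited table holds, as a signal for each of 29486 genes and 12 libraries, the fitted mean of the condition times a library factor. The authors' 3 deposited comparison tables hold fold changes and p-values and were not used.

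Library factors were medians of ratios over the 10892 genes with a mean of at least 100, and columns were divided by them and averaged within a condition. Ratios carry no pseudocount. Called means past 2-fold among genes with a mean of at least 10. Intervals are conditional binomial, from the rounded sums of 4 columns. All 65 genes were matched to GENCODE M21, 2 of them by symbol because their identifiers differ. Functions were tested on simulated data. Python 3.11.15, numpy 2.4.6, pandas 2.3.3, scipy 1.17.1 and matplotlib 3.10.9 were used.

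The genes and lists were chosen with earlier results of these data known. Named were genes with a level of at least 50 in any condition, the 3 largest differences each way in each comparison among kept genes, the 3 highest per kb of each class, the list genes past 2-fold with 13 chosen ones, and the 5 genes with the nearest ratios. Others were chosen after their values were seen. Other scalings, filters, pseudocounts and folds and leaving out each library were tried. The red blood cell marker list is not reported here.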

Additional observations from a re-analysis of the deposited data

How the results depend on the processing

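No paired analysis was possible because the columns hold fitted condition means with no value per replicate, and the results come from no test. For the same reason leaving out a library changes only the factors and the filter, and says nothing about replicates. Over these 12 runs, the medians ranged from −0.96 to −0.73 (LE against LPS), 0.87 to 0.97 (LEKU against LE) and 0.45 to 0.56 (LEKU against LPS). The counts past 2-fold ranged from 4 to 4, 6 to 7 and 1 to 2, and the summed ratios from −0.69 to −0.68, 1.23 to 1.24 and 0.54 to 0.55. No direction of a median or sum turned under any setting.

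Scaling moved the median of all kept genes in LE against LPS from 0.05 to between −0.12 and 0.30. In LE against LPS, counts past 2-fold were 7 (TMM), 7 (median-of-ratios over all genes), 2 (columns as deposited), 9 (quantile normalization), 8 (no filter), 1 (mean of at least 50), 7 (1.5-fold) and 0 (4-fold). In LEKU against LE they were 21 (no filter), 3 (mean of at least 50), 10 (1.5-fold) and 3 (4-fold). In LEKU against LPS they were 3 (library totals), 4 (columns as deposited), 11 (no filter), 4 (10 in at least 4 libraries), 6 (1.5-fold) and 0 (4-fold). The LE against LPS median was −0.17 with no filter and −0.19 with 10 in at least 4 libraries, and the LEKU against LPS median 0.10 with quantile normalization. Summed ratios in LE against LPS were −0.83, −0.86, −0.44 and −1.12 with TMM, all genes, columns as deposited and quantile normalization. In LEKU against LPS they were 0.65 with library totals and 0.45, 0.42, 0.71 and 0.27 in that order, and in LEKU against LE 1.15 and 1.38 with the last 2. With members under 30% shared windows, an alternative added after the data were seen, they were −0.81 and 1.33 in LE against LPS and LEKU against LE. Without Hist1h1c, also added then, they were 0.91 in LEKU against LE and 0.27 in LEKU against LPS, where the count past 2-fold was 0.

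Lists under other scalings were also added then. Transcription genes past 2-fold numbered 0 with library totals, 2 with TMM, 2 with all genes and 0 as deposited in LEKU against LPS, 1 with TMM, 1 with all genes and 1 with quantile normalization in LE against LPS, and 2 as deposited and 1 with quantile normalization in LEKU against LE. Decay genes numbered 0 with all genes in LE against LPS. Replication genes numbered 1, 1 and 2 as deposited in the 3 comparisons and 3 with quantile normalization in LEKU against LPS, and chaperones 2 there. With quantile normalization the signs of Hist4h4 and Hist2h4 in LE against LPS turned (−0.21 and −0.28), as did that of Hist4h4 in LEKU against LE as deposited (−0.02). Depth limits the 52 genes with a mean under 10.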
